A study of Macaca mulatta with 34 samples.

Results

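A set of 10 genes of iron and heme handling (of 34847 gene identifiers counted in every library) was followed in the deep cerebellar nuclei (DCN) of rhesus macaques, through which signals leave the cerebellum. They are HMOX1, FTH1, FTL, TFRC, TF, SLC40A1, SLC11A1, SLC11A2, NCOA4 and STEAP3, and they were chosen by symbol, each matching 1 macaque Ensembl identifier. Total RNA was sequenced in 22 DCN libraries from animals injected there under MRI guidance. Study 1 held 6 libraries from animals given AAV.miS1, an adeno-associated virus (AAV) vector of the rAAV2/1 type whose cargo is an artificial microRNA targeting ATXN1, and 4 from Vehicle animals. It was made to look for the cause of the toxicity seen with that vector. Study 2 compared redesigned constructs, with 3 libraries each after StufferOnly, an AAV with filler sequence, after miSCA7Stuffer, which by its name adds a microRNA against the ataxia gene of SCA7, after intmiS1, a reconfigured miS1 construct, and after EmptyCapsid, capsids without cargo. Libraries of a group came from separate animals by the labels' identifiers. No label used here gives age, sex, dose or time after injection. All Study 2 animals, the EmptyCapsid ones included, received capsid, whereas Vehicle animals of Study 1 received none.

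Iron enters most cells bound to transferrin, is stored in ferritin shells and leaves through ferroportin. Heme is opened by heme oxygenase, which releases its iron. In brain, oligodendrocytes make transferrin and store much of the iron, while microglia and macrophages take up iron from engulfed cells, store it and return it. When iron is scarce, iron regulatory proteins stabilise the transferrin receptor message and block translation of ferritin and ferroportin, so that ferritin protein need not follow its RNA.

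Libraries differed in depth and in how they were counted. The counts in genes ranged from 2049685 to 4810852 with AAV.miS1 and from 87741 (replicate 2) to 3439609 with Vehicle. StufferOnly held 22183232 to 32618716, miSCA7Stuffer 20978241 to 33001265, intmiS1 4858179 to 32289107 and EmptyCapsid 28496977 to 39792653. Values are counts per 1000000 (CPM) after TMM scaling, and since gene lengths are not used here, levels are compared between samples and never between genes. A gene is said to have risen or fallen where edgeR's quasi-likelihood test gave a Benjamini-Hochberg adjusted p under 0.05 over all genes tested. The library labelled miSCA7Stuffer replicate 1 held few vector reads, and whether that animal was dosed as labelled cannot be settled here. In bulk tissue, fewer cells of a type and less RNA per cell cannot be told apart.

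After AAV.miS1, the heme-degrading enzyme HMOX1 and the phagosome iron transporter SLC11A1 rose against Vehicle, and transferrin (TF) and its receptor (TFRC) did not pass the test. Of the 10 genes, 2 rose and 0 fell, where 7.22% of all 13383 genes tested rose and 0.284% fell. The log2 fold change lay above 0 for 9 of 10, with a median of 1.33 against 0.02 over all genes. The groups did not overlap for 3 genes (HMOX1, SLC40A1 and SLC11A1, each higher), where 7.47% of all genes lay higher and 2.88% lower without overlap.

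HMOX1, heme oxygenase 1, opens the heme ring and releases iron, biliverdin and carbon monoxide. Its level was 12.9, 39.3 and 108 CPM (lowest, median and highest of 6) with AAV.miS1, against 7.79, 0, 4.78 and 9.95 CPM in Vehicle replicates 1 to 4. The lowest AAV.miS1 library exceeded the highest Vehicle library. HMOX1 was 48.5 ± 36.9 CPM (SD, n = 6) with AAV.miS1 and 5.63 ± 4.31 CPM (n = 4) with Vehicle, a log2 fold change of 2.76 (SE 0.68, edgeR adjusted p = 0.0382). The 0 in Vehicle replicate 2 is weak, because that shallow library allows up to 31.1 CPM for a count of 0 (3 counts, counting error only), which is above the 12.9 and 15.7 CPM of AAV.miS1 replicates 5 and 6. Without Vehicle replicate 2 the log2 fold change was 2.70 and the adjusted p was 0.0741 (0.000506 to 0.496 over all alternatives). The call of HMOX1 was lost in 9 of 16 alternatives.

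SLC40A1, ferroportin, is the known exporter of iron from cells. It was 37.1, 73.3 and 488 CPM (lowest, median and highest) with AAV.miS1, against 32.9, 0, 28.4 and 31.5 CPM in Vehicle replicates 1 to 4. Every AAV.miS1 library lay above every Vehicle library, but AAV.miS1 replicates 5, 2 and 6, at 37.1, 53.1 and 50.1 CPM, lay far below replicate 1. The log2 fold change of 2.53 (SE 0.82) did not pass (edgeR adjusted p = 0.0825).

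The ferritin chains build the iron storage shell. FTH1, the heavy chain that oxidises iron on entry, was 532, 1404 and 5239 CPM (lowest, median and highest) with AAV.miS1, against 445, 696, 432 and 559 CPM in Vehicle replicates 1 to 4. FTL, the light chain that helps form the mineral core, was 44.9, 120 and 626 CPM with AAV.miS1, against 43.3, 41.5, 43.0 and 56.0 CPM with Vehicle. For each chain 5 of 6 AAV.miS1 libraries lay above every Vehicle library, and replicate 5 lay within the Vehicle range. The log2 fold changes, 2.04 for FTH1 (SE 0.62, edgeR adjusted p = 0.0674) and 2.26 for FTL (SE 0.73, adjusted p = 0.0818), did not pass. NCOA4, the receptor that carries ferritin to lysosomes for breakdown, was 248, 387 and 951 CPM with AAV.miS1, against 214, 135, 213 and 273 CPM with Vehicle. Again only replicate 5 overlapped the Vehicle range, and the log2 fold change of 1.16 (SE 0.39) had an edgeR adjusted p of 0.0894.

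Of the paralogous transporters of divalent iron, SLC11A1 passed and SLC11A2 did not, a difference that was not itself tested. SLC11A1, also called NRAMP1, moves iron and manganese out of the phagosomes of macrophages. It was 71.8, 98.2 and 222 CPM (lowest, median and highest) with AAV.miS1, against 37.2, 51.9, 40.5 and 36.1 CPM with Vehicle, with no overlap. The 51.9 CPM of Vehicle replicate 2 is 5 counts. Its exact Poisson 95% interval of 16.9 to 121 CPM covers all AAV.miS1 values but the highest. SLC11A1 rose by 1.496 on the log2 scale (SE 0.34, edgeR adjusted p = 0.0313, n = 6 and 4). That call was lost in 7 of 16 alternatives (adjusted p by edgeR or DESeq2 0.000812 to 0.138 over all of them). SLC11A2, or DMT1, which carries iron out of endosomes in many cell types, was 64.3, 111 and 157 CPM with AAV.miS1, against 80.1, 62.3, 60.2 and 60.3 CPM with Vehicle. Its log2 fold change of 0.73 (SE 0.23) did not pass (adjusted p = 0.0771), and replicate 5 lay within the Vehicle range. STEAP3, the endosomal reductase that readies transferrin iron for DMT1, was 3.34, 7.68 and 17.6 CPM with AAV.miS1 and 5.63, 10.4, 2.53 and 2.98 CPM with Vehicle. The 10.4 CPM of Vehicle replicate 2 is 1 count (exact Poisson 95% interval 0.263 to 57.9 CPM), and the log2 fold change of 1.13 (SE 0.53) had an adjusted p of 0.200.

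Neither gene of transferrin uptake passed. TFRC, the receptor that takes in transferrin, was 58.2, 103 and 288 CPM (lowest, median and highest) with AAV.miS1, against 75.3, 51.9, 77.6 and 76.6 CPM with Vehicle. The groups overlapped, and replicate 1 alone stood well above the other AAV.miS1 libraries, of which the next held 111 CPM. Its log2 fold change was 0.74 (95% interval -0.18 to 1.66, edgeR adjusted p = 0.268). TF, the carrier protein, was 1426, 1734 and 2854 CPM with AAV.miS1, against 2383, 2098, 1669 and 2103 CPM with Vehicle. The groups overlapped on both sides, and the log2 fold change of -0.15 had a 95% interval of -0.64 to 0.34 (adjusted p = 0.679).

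**Figure D1:**
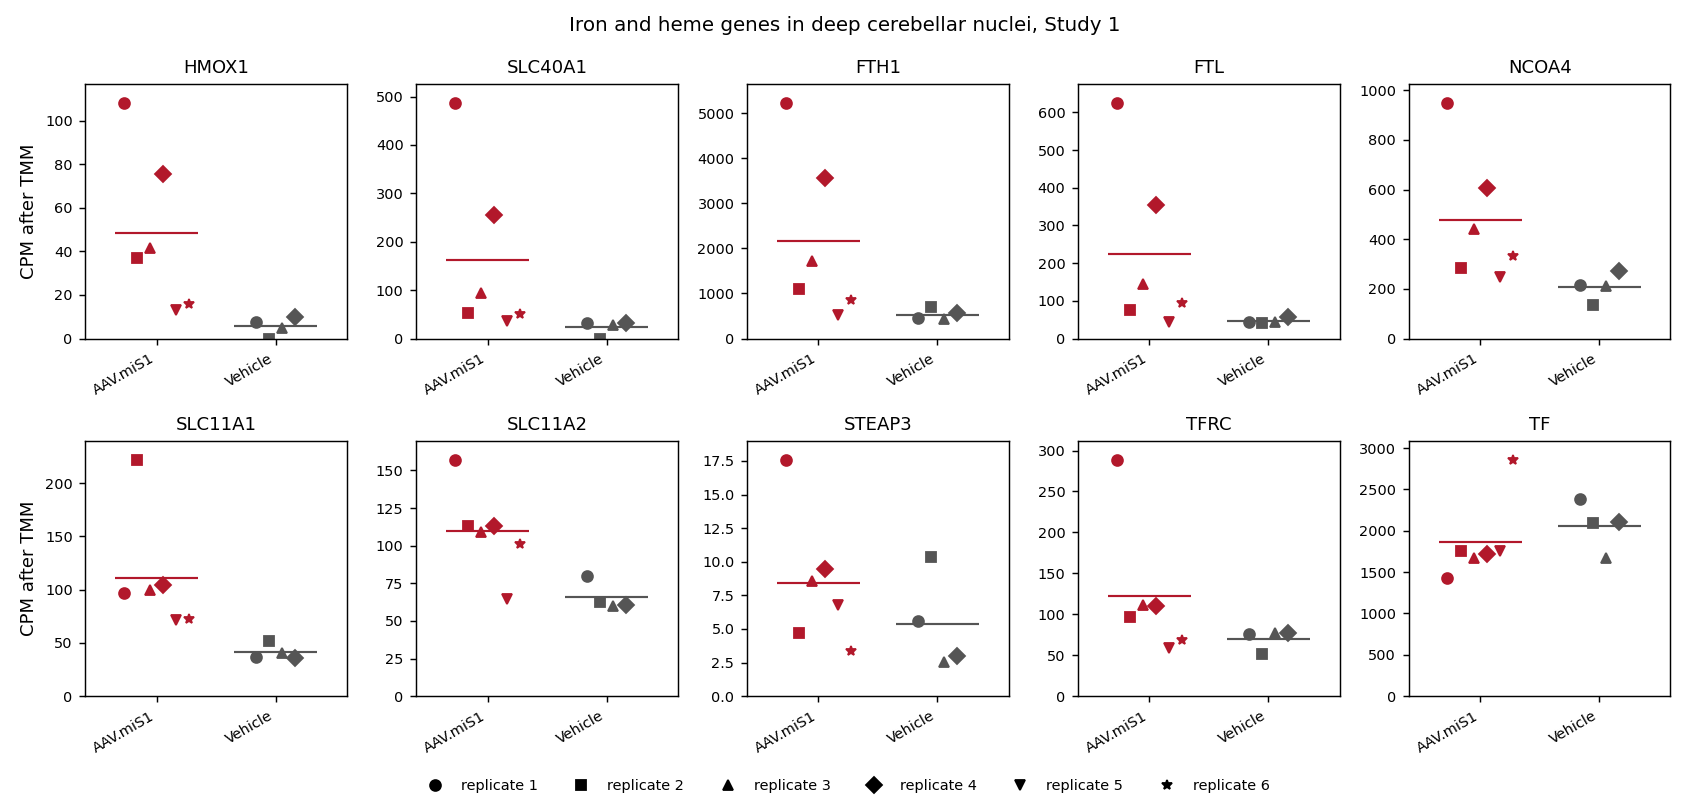
CPM after TMM scaling (vertical axis, from 0) of the 10 genes in the 6 AAV.miS1 and 4 Vehicle libraries of Study 1. Points are libraries, with the marker giving the replicate, and lines are group means. AAV.miS1 replicate 1 is the highest library for 8 of 10 genes, and replicates 5 and 6 lie near the Vehicle points for most genes.

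The 6 AAV.miS1 libraries did not share 1 level. Replicate 1 was the highest of the 6 for 8 of the 10 genes, the exceptions being SLC11A1 (replicate 2) and TF (replicate 6). Replicate 5 was among the 2 lowest for 8 genes and replicate 6 for 7. Reads on a vector sequence held in the count tables, whose name contains miS1 and Stfr, were counted per 1000000 raw counts in genes (RPM). They were 7.48, 67.8, 17.1, 20.4, 2.37 and 4.88 in AAV.miS1 replicates 1 to 6, and 0.881, 0, 0.872 and 0.336 with Vehicle. Replicates 5 and 6 thus held the fewest vector reads, while replicate 1, highest for most iron genes, was not the highest for vector. AAV.miS1 replicates 5 and 6 and Vehicle replicates 2 to 4 also had over 15% of reads unmapped, against 9.23% to 11.99% in the other Study 1 libraries. Within those libraries the log2 fold change was 1.02 for HMOX1 (adjusted p = 0.496; 0.000506 to 0.496 over all alternatives) and 0.88 for SLC11A1 (0.104; 0.000812 to 0.138), and 0 of 10 genes passed by edgeR. With a term for that share, added for all libraries, the values were 1.84 (0.153) and 1.24 (0.106). The part of read quality in these results was not tested further.

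Markers of phagocytes moved with the same libraries. The summed level of 14 microglia and macrophage markers was 1096, 5477 and 22610 CPM (lowest, median and highest) with AAV.miS1, against 567.5, 670.5 and 1464 CPM with Vehicle. The highest was again AAV.miS1 replicate 1 and the lowest replicate 5. Of 13 of these markers tested, 9 rose and 0 fell, and TMEM119, a marker of resident microglia, was at 0 in 4 of 6 AAV.miS1 and 2 of 4 Vehicle libraries. Summed oligodendrocyte markers were 12680, 18700 and 29320 CPM with AAV.miS1, against 27240, 30300 and 39600 CPM with Vehicle, with 0 of 11 identifiers passing. Summed neuron markers were 81.69, 1359 and 3876 CPM with AAV.miS1, against 2202, 3539 and 4092 CPM with Vehicle (0 of 10 rose and 1 fell). Astrocyte, endothelium, choroid plexus, and neutrophil and monocyte markers overlapped between the groups in their sums. The 8 red blood cell markers counted, among them the globins HBA and HBA1, summed to 0.356 to 2.96 CPM with AAV.miS1 and 0 to 3.09 CPM with Vehicle, and HBA, HBA1, HBM and ALAS2 were at 0 in all 10 libraries. The part of cell numbers in the values of the iron genes was not tested.

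In Study 2, heme oxygenase, ferroportin, both ferritin chains, both SLC11 transporters and STEAP3 rose with StufferOnly against EmptyCapsid, and TF and TFRC again did not pass. Of the 10 genes, 7 rose and 0 fell (HMOX1, FTL, SLC40A1, FTH1, SLC11A1, STEAP3 and SLC11A2), where 11.6% of all 20882 genes tested rose and 3.81% fell. The median log2 fold change was 1.03, against 0.02 over all genes, and 8 genes lay higher and 0 lower without overlap, where 26.8% of all genes lay higher and 22.3% lower. HMOX1 was 36.0, 23.7 and 33.3 CPM in StufferOnly replicates 1 to 3, against 6.01, 4.01 and 5.25 CPM in EmptyCapsid replicates 1 to 3. HMOX1 rose by 2.603 on the log2 scale (SE 0.38, edgeR adjusted p = 0.0163, higher in 3 of 3).

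Ferroportin and both ferritin chains rose too. SLC40A1 was 158, 131 and 191 CPM with StufferOnly, against 31.7, 35.7 and 35.3 CPM with EmptyCapsid (log2 fold change 2.22, SE 0.53, edgeR adjusted p = 0.0291). FTL was 2071, 2974 and 2690.5 CPM with StufferOnly, against 518, 589 and 554 CPM with EmptyCapsid (2.22, SE 0.51, 0.0265). FTH1 was 333, 642 and 443 CPM with StufferOnly, against 149, 141 and 139 CPM with EmptyCapsid (1.72, SE 0.44, 0.0340). All 3 genes were higher in 3 of 3 libraries, and their EmptyCapsid libraries lay close together. NCOA4, the ferritin breakdown receptor, was 432, 566 and 487 CPM with StufferOnly, against 258, 253 and 262 CPM with EmptyCapsid. The groups did not overlap, yet the log2 fold change of 0.94 (SE 0.30) missed the threshold (adjusted p = 0.0628).

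The SLC11 transporters and the endosomal reductase rose as well. SLC11A1 was 72.3, 89.5 and 72.6 CPM with StufferOnly, against 35.6, 40.001 and 33.1 CPM with EmptyCapsid (log2 fold change 1.11, SE 0.25, edgeR adjusted p = 0.0259). SLC11A2 was 105, 138 and 123 CPM with StufferOnly, against 68.7, 65.6 and 58.9 CPM with EmptyCapsid (0.92, SE 0.14, 0.0181). STEAP3 was 8.25, 9.15 and 9.02 CPM with StufferOnly, against 4.43, 4.79 and 4.53 CPM with EmptyCapsid (0.94, SE 0.19, 0.0205). Each of the 3 was higher in 3 of 3 libraries. TFRC was 77.8, 117 and 69.3 CPM with StufferOnly, against 85.7, 95.6 and 85.0 CPM with EmptyCapsid (-0.01, 95% interval -0.47 to 0.45, adjusted p = 0.971). TF was 1193, 2800.2 and 1406 CPM with StufferOnly, against 1979.6, 2188 and 1579.8 CPM with EmptyCapsid (-0.09, 95% interval -0.84 to 0.66, adjusted p = 0.869). For both genes StufferOnly replicate 2 lay above and replicates 1 and 3 below all EmptyCapsid libraries.

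These calls need all 3 libraries on most sides. Leaving out any 1 EmptyCapsid library, or StufferOnly replicate 2 or 3, left 0 of the 10 genes called, while the log2 fold change of HMOX1 stayed between 2.35 and 2.76 and that of FTL between 2.10 and 2.35. In those fits at most 53 of all genes passed by edgeR. Without StufferOnly replicate 1, the call of SLC40A1 was lost and 6 genes remained called. Beside these values, the summed microglia and macrophage markers were 5179, 7783 and 7403 CPM in StufferOnly replicates 1 to 3 and 484.9 to 574.4 CPM with EmptyCapsid, with 10 of 13 markers higher by edgeR. Summed oligodendrocyte markers were 16670 to 19430 CPM with StufferOnly and 28520 to 42040 CPM with EmptyCapsid (8 of 11 identifiers lower). Summed neuron markers were 1413 to 2862 CPM with StufferOnly and 3218 to 4236 CPM with EmptyCapsid (0 of 10 called). Endothelium markers summed to 344.3 to 460.5 CPM with StufferOnly and 157.9 to 245.6 CPM with EmptyCapsid (2 of 7 higher). Neutrophil and monocyte markers summed to 153.2 to 223.4 CPM with StufferOnly and 314.6 to 396.6 CPM with EmptyCapsid. Of 3 tested, 1 fell and 0 rose by edgeR, while the log2 fold change lay above 0 for 2 of 3 (median 1.16). Their lower sum thus does not stand for each of these markers. Astrocyte and choroid plexus marker sums overlapped. Red blood cell markers summed to 3.03 to 6.75 CPM with StufferOnly and 3.18 to 9.71 CPM with EmptyCapsid. The part of cell numbers was not tested here either.

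**Figure D2:**
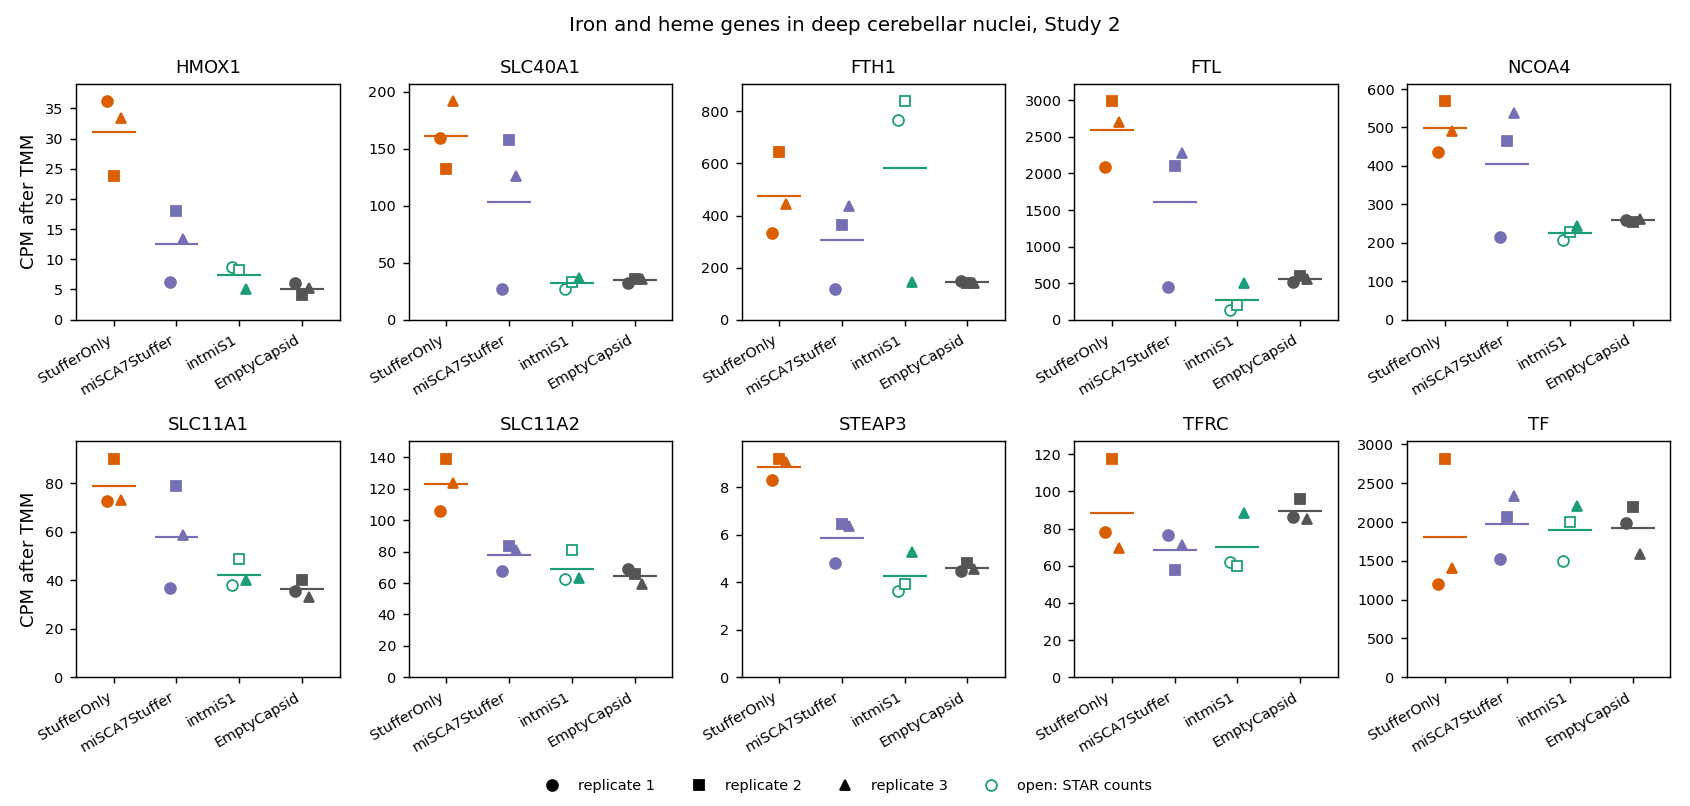
CPM after TMM scaling of all 12 libraries together (vertical axis, from 0) of the 10 genes in the 4 groups of Study 2. Points are libraries, open points were counted with STAR and the others with featureCounts, and lines are group means. miSCA7Stuffer replicate 1 lies below all EmptyCapsid libraries for SLC40A1, FTH1, FTL and NCOA4 while replicates 2 and 3 lie above them.

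The miSCA7Stuffer group split into 1 and 2 libraries. By edgeR 0 of 10 genes passed against EmptyCapsid, where 0.00479% of all genes rose (1 gene, and 4808 at an unadjusted p under 0.05), and DESeq2 called HMOX1, FTL and SLC40A1 among 2336 of all genes. Both stuffer groups were set against the same EmptyCapsid libraries, so these comparisons share their controls. SLC40A1 was 26.7, 157 and 126 CPM in miSCA7Stuffer replicates 1 to 3, against 31.7, 35.7 and 35.3 CPM with EmptyCapsid. FTL was 450.3, 2092 and 2277 CPM, against 518, 589 and 554 CPM with EmptyCapsid. FTH1 was 118, 363 and 435 CPM, against 149, 141 and 139 CPM with EmptyCapsid. In replicate 1 these 3 genes lay below every EmptyCapsid library, and in replicates 2 and 3 they lay far above.

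HMOX1 was 6.26, 17.9 and 13.3 CPM in miSCA7Stuffer replicates 1 to 3, against 6.01, 4.01 and 5.25 CPM with EmptyCapsid, so that replicate 1 lay just above the highest EmptyCapsid library. Its log2 fold change of 1.29 (SE 0.37) had an edgeR adjusted p of 0.137. NCOA4 was 214, 462 and 537 CPM (EmptyCapsid 253 to 262), SLC11A1 36.5, 78.3 and 58.3 CPM (EmptyCapsid 33.1 to 40.001) and STEAP3 4.77, 6.42 and 6.33 CPM (EmptyCapsid 4.43 to 4.79). SLC11A2 was 67.2, 83.6 and 81.0 CPM with miSCA7Stuffer, against 58.9 to 68.7 CPM with EmptyCapsid. TFRC, at 76.3, 57.7 and 70.9 CPM, lay below the 85.0 to 95.6 CPM of EmptyCapsid in 3 of 3 libraries, but its log2 fold change of -0.38 did not pass (95% interval -0.84 to 0.08, adjusted p = 0.286). TF was 1515, 2055 and 2331 CPM, against 1579.8 to 2188 CPM with EmptyCapsid. Of the 10 genes, HMOX1 (higher) and TFRC (lower) did not overlap, where 12.2% of all genes lay higher and 12.6% lower without overlap.

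The library labelled replicate 1 also stood apart in its vector reads. The group's values and its count of 0 genes include this library. Why it held few vector reads was not tested, and whether that animal was dosed as labelled cannot be settled here. Reads on the same vector sequence were 1.64, 349.4 and 257.1 RPM in miSCA7Stuffer replicates 1 to 3, against 349.7, 625.3 and 247.5 RPM with StufferOnly and 0.151 to 0.281 RPM with EmptyCapsid. The summed microglia and macrophage markers were 431.8, 4586 and 5187 CPM in those miSCA7Stuffer libraries, against 484.9 to 574.4 CPM with EmptyCapsid. Without replicate 1, 6 of 10 genes rose (HMOX1, FTH1, FTL, SLC40A1, SLC11A1 and NCOA4), with log2 fold changes of 1.58, 1.45, 1.95, 2.01, 0.88 and 0.92. That is with 2 libraries left in the group and with 6983 of all genes called.

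miSCA7Stuffer against StufferOnly gave 0 of 10 genes past the threshold by edgeR, as for all genes (0, with 2117 at an unadjusted p under 0.05). Even so, HMOX1 was lower in 3 of 3 miSCA7Stuffer libraries than in any StufferOnly library (6.26 to 17.9 CPM against 23.7 to 36.0 CPM), with a log2 difference of -1.31 (SE 0.36, edgeR adjusted p = 0.300). SLC11A2 (-0.66, SE 0.14, adjusted p = 0.243) and STEAP3 (-0.59, SE 0.19, 0.356) were also lower in 3 of 3 libraries. The count without overlap was thus 3 of 10, where 8.29% of all genes lay lower and 6.29% higher without overlap. DESeq2 called HMOX1 and SLC11A2 as lower, among 446 of all genes. Without miSCA7Stuffer replicate 1 the log2 difference of HMOX1 was -0.92, and 0 of the 10 genes passed (343 of all genes). For FTL (-0.68, 95% interval -1.80 to 0.43) and SLC40A1 (-0.63, -1.79 to 0.52) the intervals cover both no difference and a fall by more than 1 on the log2 scale. The same holds for FTH1 (-0.63, -1.60 to 0.34) and SLC11A1 (-0.44, -1.01 to 0.13). NCOA4 (-0.29, -0.96 to 0.37), TFRC (-0.37, -0.83 to 0.10) and TF (0.13, -0.62 to 0.88) did not pass either.

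**Figure D3:**
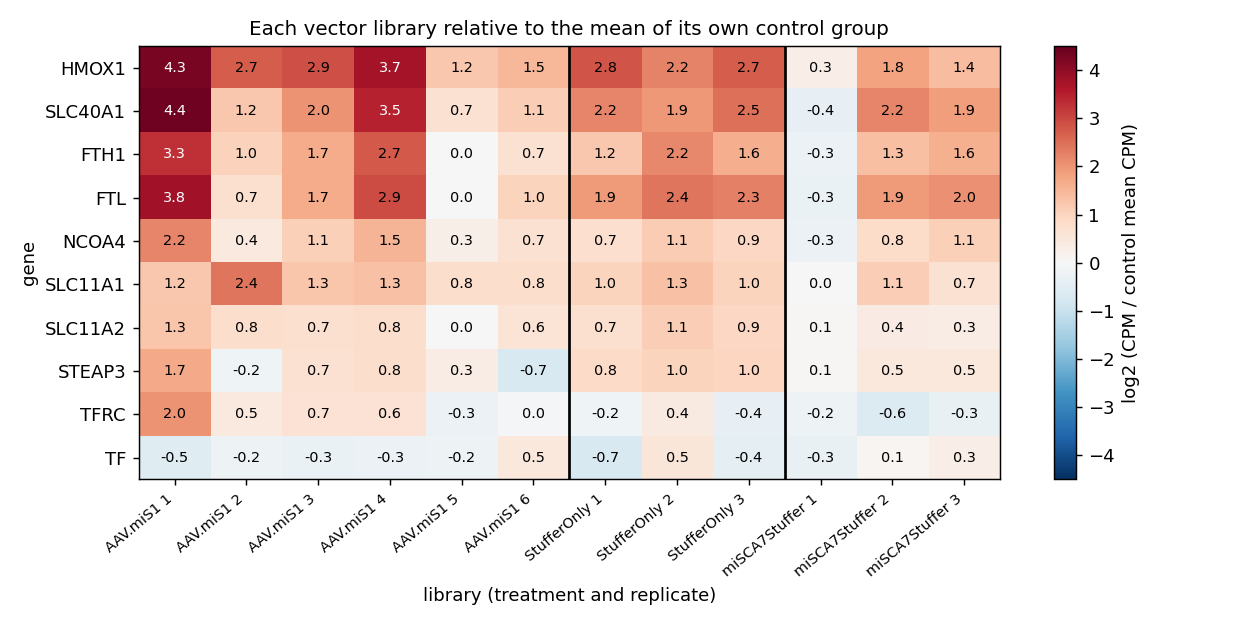
Log2 of each library's CPM over the mean CPM of its own control group, Vehicle for AAV.miS1 and EmptyCapsid for both stuffer groups. Rows are genes, columns are libraries, red is higher and blue lower than the control mean, and the number in each cell is the value. AAV.miS1 replicates 1, 2, 3, 4 and 6 and all StufferOnly libraries are above 0 down to SLC11A2. AAV.miS1 replicate 5 is at or just below 0 for FTH1, FTL and SLC11A2. The library miSCA7Stuffer replicate 1 is below 0 for SLC40A1, FTH1, FTL, NCOA4, TFRC and TF. TF is below 0 in StufferOnly replicates 1 and 3 and above it in replicate 2.

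After intmiS1 the iron genes lay near EmptyCapsid, apart from the ferritin chains. By edgeR 0 of 10 genes passed, where 0% of all 21501 genes passed (1831 at an unadjusted p under 0.05), and DESeq2 also called 0 of the 10 (50 of all genes). The spread within intmiS1 includes the counting difference described below, so these counts are not set against spread between animals alone. The median log2 fold change was -0.05, against 0.01 over all genes. HMOX1 was 8.77, 8.26 and 5.16 CPM in intmiS1 replicates 1 to 3, against 4.03 to 6.04 CPM with EmptyCapsid in the same scaling (0.50, 95% interval -0.31 to 1.32, adjusted p = 0.686). SLC40A1 was 27.1, 32.7 and 36.1 CPM with intmiS1, against 31.9 to 35.9 CPM with EmptyCapsid. NCOA4 (207 to 244 CPM with intmiS1, 255 to 263 CPM with EmptyCapsid) and FTL (129 to 502 CPM with intmiS1, 521 to 592 CPM with EmptyCapsid) lay lower in 3 of 3 libraries, where 10.7% of all genes lay lower and 9.51% higher without overlap. The other genes overlapped between intmiS1 and EmptyCapsid, FTH1 among them (values below). SLC11A1 was 37.9 to 48.6 CPM with intmiS1 and 33.3 to 40.2 CPM with EmptyCapsid, and SLC11A2 was 62.7 to 81.2 CPM with intmiS1 and 59.2 to 69.1 CPM with EmptyCapsid. STEAP3 was 3.62 to 5.29 CPM with intmiS1, against 4.46 to 4.82 CPM with EmptyCapsid. TFRC was 59.6 to 88.5 CPM with intmiS1, against 85.4 to 96.1 CPM with EmptyCapsid, and TF was 1493 to 2209 CPM with intmiS1, against 1588 to 2198 CPM with EmptyCapsid. The summed microglia and macrophage markers were 480.3 to 710.5 CPM with intmiS1 and 487.6 to 577.3 CPM with EmptyCapsid.

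The ferritin values of intmiS1 followed the counting program. FTH1 was 767 and 840 CPM in intmiS1 replicates 1 and 2, which were counted with STAR, but 143 CPM in replicate 3, which was counted with featureCounts like all EmptyCapsid libraries (140 to 150.2 CPM). FTL ran the other way, at 129 and 196 CPM in replicates 1 and 2 and 502 CPM in replicate 3. Over all 22 libraries the ratio of FTL to FTH1 counts was 0.0597 to 0.233 in the 12 libraries counted with STAR and 3.47 to 6.22 in the 10 counted with featureCounts. The FTH1 difference of 2.02 between intmiS1 and EmptyCapsid (SE 0.61, edgeR adjusted p = 0.576) was -0.01 with a term for the counting program. Ferritin genes have many near-identical processed copies in primate genomes, among which programs can divide or drop reads differently. Whether that is the reason here was not tested. No library was counted with both programs, so depth and other differences between these libraries cannot be told apart from the program. Because the ratio differed so between programs, ferritin levels are uncertain, and ferritin differences across programs are not read as differences between groups. Within one program the ratio was 4.63 to 6.22 with StufferOnly, 3.80 to 5.76 with miSCA7Stuffer and 3.47 to 4.17 with EmptyCapsid, and 0.0699 to 0.119 with AAV.miS1 and 0.0597 to 0.1 with Vehicle.

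**Figure D4:**
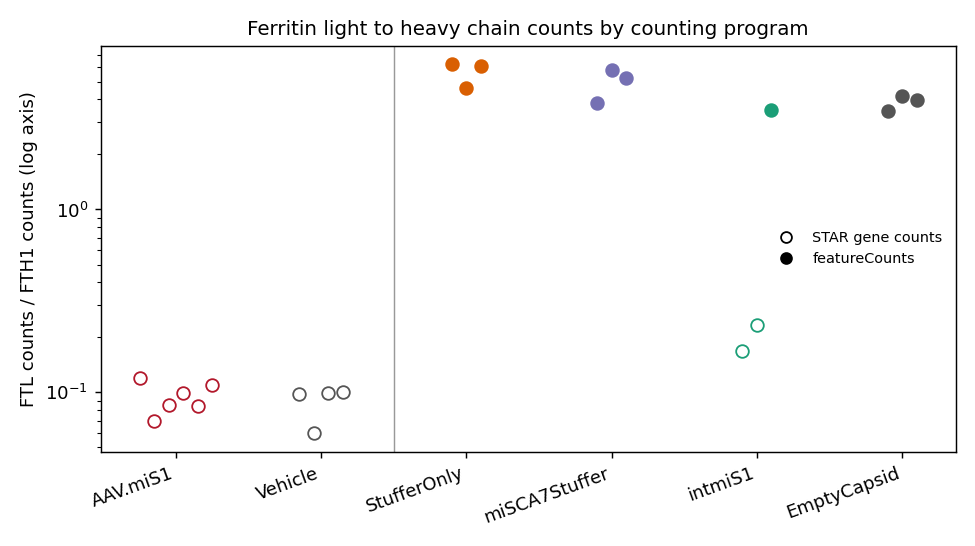
Ratio of FTL to FTH1 counts (log axis) in each of the 22 libraries by group, with open points for STAR and filled points for featureCounts, and a line between Study 1 (left) and Study 2 (right). All STAR points lie at or below 0.233 and all featureCounts points at or above 3.47, including within intmiS1.

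Set against StufferOnly, intmiS1 held lower levels of 7 of the 10 genes, where 8.46% of all genes fell and 3.40% rose. FTL, whose counts followed the counting program, is among these 7. HMOX1 was 7.40 ± 1.95 CPM with intmiS1 and 31.2 ± 6.53 CPM with StufferOnly (SD, n = 3 each; log2 fold change -2.10, SE 0.38, edgeR adjusted p = 0.0129). SLC40A1 was 32.0 ± 4.56 CPM with intmiS1 and 161 ± 29.9 CPM with StufferOnly (-2.33, SE 0.49, 0.0169). NCOA4 was 226 ± 18.4 CPM with intmiS1 and 498 ± 67.1 CPM with StufferOnly (-1.14, SE 0.27, 0.0252). STEAP3 fell by 1.03, SLC11A1 by 0.90 and SLC11A2 by 0.83 on the log2 scale, and FTL, subject to the counting difference above, by 3.23. All 7 were lower in 3 of 3 libraries, where 22.6% of all genes lay lower and 15.5% higher without overlap. With a term for the counting program, which leaves intmiS1 replicate 3 to carry the comparison, 0 of 10 passed (0 of all genes, 3622 at an unadjusted p under 0.05). HMOX1 was then at -2.59 (adjusted p = 0.154), SLC40A1 at -2.15 (0.218), NCOA4 at -1.03 (0.252) and FTL at -2.37 (0.200). Without that term FTH1 (0.29, 95% interval -0.996 to 1.59), TFRC (-0.34, -0.82 to 0.15) and TF (0.07, -0.62 to 0.76) did not pass, and the term turned FTH1 to -1.73. Without intmiS1 replicate 1, 0 genes were called, and without replicate 2 SLC11A2 alone.

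**Figure D5:**
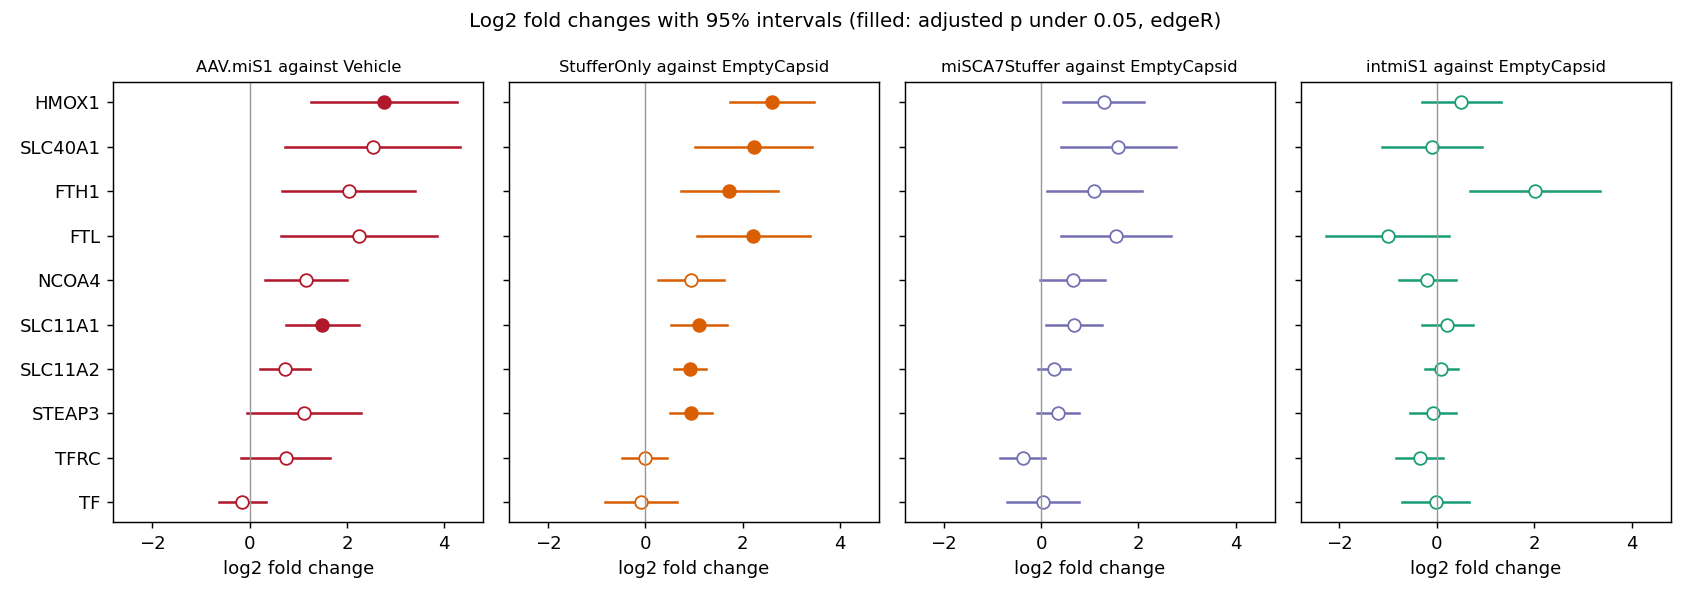
Log2 fold changes (points) with 95% intervals (lines) of the 10 genes in 4 comparisons, filled where the edgeR adjusted p is under 0.05. HMOX1 and SLC11A1 are filled for AAV.miS1, 7 genes for StufferOnly and 0 for miSCA7Stuffer and intmiS1, and the intervals of TF cross 0 in each panel.

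The effects of the vectors were also set against each other across studies, each relative to its own control. AAV.miS1 minus StufferOnly gave 0 of 10 genes past the threshold by edgeR (0 of all genes, 464 at an unadjusted p under 0.05) and 0 of 10 by DESeq2 (17 of all genes). The difference was 0.17 for HMOX1 (95% interval -1.48 to 1.81), 0.30 for SLC40A1 (-1.76 to 2.36), 0.41 for SLC11A1 (-0.46 to 1.29) and 0.77 for TFRC (-0.31 to 1.86). It was 0.35 for FTH1 (-1.51 to 2.21), 0.06 for FTL (-1.95 to 2.06), 0.23 for NCOA4 (-0.82 to 1.29), -0.17 for SLC11A2 (-0.76 to 0.41), 0.22 for STEAP3 (-0.97 to 1.41) and -0.01 for TF (-0.81 to 0.79). These intervals are wide, and an effect on HMOX1 larger by more than 1 on the log2 scale in either study lies within them. AAV.miS1 minus intmiS1 also gave 0 of 10 (0 of all genes, 2865 at an unadjusted p under 0.05), and DESeq2 called FTL among 400 of all genes. FTL differed by 3.20 (95% interval 1.12 to 5.29, edgeR adjusted p = 0.164). With a term for the counting program, which the intmiS1 ferritin values followed, FTL differed by 2.35, with replicate 3 alone carrying the intmiS1 side. The difference was 2.17 for HMOX1 (95% interval 0.48 to 3.87, edgeR adjusted p = 0.199), 2.54 for SLC40A1 (0.42 to 4.66, 0.219) and 1.21 for SLC11A1 (0.32 to 2.10, 0.178). It was -0.05 for FTH1 (-1.91 to 1.80), 1.27 for NCOA4 (0.21 to 2.34, 0.219), 0.56 for SLC11A2 (-0.03 to 1.15), 1.16 for STEAP3 (-0.06 to 2.37), 1.01 for TFRC (-0.07 to 2.10) and -0.19 for TF (-0.98 to 0.61). Study, control injection and counting cannot be told apart in the levels themselves.

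Other genes of iron and heme were followed in 6 lists. In Study 1, 4 of their 62 genes tested rose (6.45%) and 0 fell, near the 7.22% and 0.284% of all genes. By list, 0 of 8 heme synthesis genes, 0 of 12 iron regulators and 0 of 13 genes of mitochondrial and cytosolic iron handling passed by edgeR, with list medians of 0.15, 0.16 and 0.14. Of 10 genes of heme breakdown and transport 1 rose, CD163, the macrophage receptor for hemoglobin bound to haptoglobin, at 93.7 ± 69.4 CPM with AAV.miS1 and 12.4 ± 12.5 CPM with Vehicle (log2 fold change 3.72, SE 0.77, edgeR adjusted p = 0.0275). Of 7 oxidases, reductases and transporters 1 rose, CP, ceruloplasmin, the copper oxidase that loads exported iron onto transferrin. CP was 54.1, 219 and 423 CPM (lowest, median and highest) with AAV.miS1, against 0 to 12.99 CPM with Vehicle, and rose by 4.73 (SE 0.66, adjusted p = 0.0275, higher in 6 of 6). Of 12 genes of ferroptosis and NRF2 targets 2 rose, ALOX5, a lipoxygenase of leukocytes (1.58, SE 0.37, 0.0324, higher in 6 of 6), and SAT1, a polyamine acetyltransferase (2.58, SE 0.64, 0.0390).

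With StufferOnly 13 of 69 such genes rose (18.8%) and 5 fell (7.25%), where 11.6% of all genes rose and 3.81% fell. Heme synthesis again had 0 of 8, with a list median of 0.23. Of 10 genes of heme breakdown and transport 4 rose and 2 fell, among them CD163 (41.6 ± 19.7 CPM with StufferOnly and 3.23 ± 1.29 CPM with EmptyCapsid, log2 fold change 3.69, edgeR adjusted p = 0.0200). The 2 that fell were ABCG2, an exporter that also carries heme (-0.84, adjusted p = 0.0200), and SLC48A1, the heme transporter of lysosomes (-0.51, 0.0219). Of 14 regulators 2 rose, BACH1, the heme-sensing repressor of HMOX1 (1.14, 0.0428), and ACO1, an iron regulatory protein (0.38, 0.0432), and SKP1, a ubiquitin ligase subunit, fell (-0.50, 0.0402). Of 11 oxidases, reductases and transporters 2 rose and 1 fell. CP was 154 ± 62.8 CPM with StufferOnly and 15.3 ± 1.402 CPM with EmptyCapsid (3.33, 0.0408). LCN2, a protein that binds iron-carrying siderophores, was low throughout at 1.09 ± 0.68 CPM with StufferOnly and 0.048 ± 0.042 CPM with EmptyCapsid (4.31, 0.0266), and STEAP2, a metal reductase, fell (-1.20, 0.0246). Of 13 mitochondrial and cytosolic genes 1 rose, MCOLN1, a lysosomal cation channel (1.36, 0.0207). Of 13 genes of ferroptosis and NRF2 targets 4 rose and 1 fell, with SAT1 (2.72, 0.0183), GPX4, which reduces lipid peroxides (0.73, 0.0290), and TXNRD1, thioredoxin reductase (1.09, 0.0303), the smallest p. With miSCA7Stuffer and with intmiS1, 0 genes of these 6 lists passed against EmptyCapsid by edgeR.

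Pearson's r on log2 CPM was taken over the 10 libraries of Study 1 and over the 9 featureCounts libraries of StufferOnly, miSCA7Stuffer and EmptyCapsid. The genes whose pattern was most like a member's, by the mean of both r values, are given as a description. For HMOX1 they included CD14 (r 0.99 and 0.98 in Study 1 and Study 2) and DNASE2 (0.98 and 0.96). For FTL they were ABCA1 (0.98 and 0.99), LIPA (0.97 and 0.99) and LITAF (0.97 and 0.99). For TFRC they were TTLL12 (0.86 and 0.86), PARM1 (0.86 and 0.82) and BTBD1 (0.75 and 0.92), and for TF they were SLC12A2 (0.94 and 0.76), CD22 (0.82 and 0.86) and SLAIN1 (0.82 and 0.73). The libraries share treatment groups and depth, so such r values follow the group differences as well as any other variation.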

How the data were processed

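Total RNA was extracted from DCN tissue with TRIzol, depleted of ribosomal RNA and made into directional libraries, per the labels' protocols. The authors deposited counts of reads per gene. Reads were aligned with STAR 2.6.0c, and DESeq2 (version not stated) was also used, per the submitters' processing notes. The sources used here name no genome build. Study 1 and 2 intmiS1 libraries came as STAR gene counts, and the other 10 libraries as featureCounts tables in which a read overlapping several genes counts in each, per the file headers. The reverse column was used for Study 1 and the unstranded column for the 2 intmiS1 libraries, where a gene and its antisense partner cannot be told apart. Of the reads in Study 1 tables, 63.6% to 72.0% named no gene, and they were left out of library sizes.

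Symbols came from a gene name table (24009 of 34847 identifiers). edgeR's filterByExpr chose the genes tested (at least 10 counts, total at least 15); counts were scaled by TMM and tested with edgeR 4.0.16 (quasi-likelihood F test, R 4.3.3) with Benjamini-Hochberg adjustment at 0.05 over all genes kept. Study 1, the 9 featureCounts libraries of StufferOnly, miSCA7Stuffer and EmptyCapsid, all 12 of Study 2 (for intmiS1) and all 22 (between studies) were fitted separately. Fold changes used a prior count of 0.125 and likeness a prior count of 2, and standard errors were derived from the F statistic. DESeq2 1.42.0, other scalings, filters, columns, terms and left-out libraries were alternatives. All 10 genes are named in each comparison, with up to 3 called genes of smallest p from each related list against Vehicle and for StufferOnly, and 3 genes of closest pattern for 4 members, of which 1 is not reported here. The genes and lists were chosen with earlier results of these data known. The fitting code was tested on simulated data. Study 1 replicates were numbered in accession order, Poisson intervals and limits of a 0 cover counting error only, and p values and fold change intervals measure spread between these animals. In fits that include intmiS1, whose libraries were counted with 2 programs, that spread also holds the counting difference. Same-numbered libraries deviated together in each of the 3 pairs of miSCA7Stuffer and StufferOnly (r 0.185 to 0.446). Over all 12 libraries of Study 2, r was -0.0442 to 0.161 for intmiS1 and miSCA7Stuffer, with 2 of 3 pairs over 0.1. In the other groups compared no pair had r over 0.1. No label pairs same-numbered libraries, and 5 of 9 featureCounts libraries correlated best with their own number. Whether they are paired cannot be settled, and the replicate block was run as an alternative. No sequence, length or coordinate was used. Small RNA libraries were not analysed here.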

Additional observations from a re-analysis of the deposited data

Results flagged for a closer look

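Among 20 groups of 4 or more libraries examined (10 genes in AAV.miS1 and in Vehicle), 7 held a library far from the others of its group by Dixon's criterion. For normally distributed values the criterion flags about 1 in 20. It was applied to CPM without a log transform, so that rate need not hold here. With AAV.miS1, TFRC stood at 288.2 CPM in replicate 1, SLC11A1 at 221.6 CPM in replicate 2 and TF at 2854 CPM in replicate 6, each the highest of its group. With Vehicle, FTL stood at 56.03 CPM in replicate 4 and SLC11A2 at 80.08 CPM in replicate 1, each the highest. Also with Vehicle, SLC40A1 at 0 CPM and TFRC at 51.92 CPM were the lowest in replicate 2, the library of 87741 counts, where TFRC rests on 5 counts (exact Poisson 95% interval 16.9 to 121 CPM).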

How the results depend on the processing

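In the 3 comparisons with iron genes called, 17 of 38 alternative counts stayed within 1.5 times the value reported and 21 did not. In the other 5 comparisons 68 of 74 alternatives again called 0. No iron gene called in a comparison changed direction under any alternative run. DESeq2 called 7 iron genes with AAV.miS1 against Vehicle (edgeR 2), 3 with miSCA7Stuffer against EmptyCapsid (edgeR 0), 2 with miSCA7Stuffer against StufferOnly (edgeR 0) and 1 for AAV.miS1 minus intmiS1 (edgeR 0). Over all genes DESeq2 called 1786 with AAV.miS1 (edgeR 1004), 5329 with StufferOnly (edgeR 3219), 2336 with miSCA7Stuffer (edgeR 1) and 50 with intmiS1 (edgeR 0). It called 446 for miSCA7Stuffer against StufferOnly (edgeR 0), 4242 for intmiS1 against StufferOnly (edgeR 2552), 17 for AAV.miS1 minus StufferOnly (edgeR 0) and 400 for AAV.miS1 minus intmiS1 (edgeR 0). With AAV.miS1, 0 iron genes were called with a term for libraries over 15% unmapped (148 of all genes) and 0 within those libraries, a comparison of fewer samples chosen after seeing the data (123 of all genes). With the counting term, 0 were called for intmiS1 against StufferOnly, where replicate 3 alone carries the comparison. Leaving out 1 library in turn gave 0 to 7 iron genes called with AAV.miS1, 0 to 6 with StufferOnly, 0 to 6 with miSCA7Stuffer and 0 to 1 with intmiS1, each against its control, while calls over all genes spanned 0 to 2300, 0 to 2593, 0 to 6983 and 0 to 1852. It gave 0 to 6 for intmiS1 against StufferOnly (132 to 3833 of all genes) and 0 to 1 for AAV.miS1 minus intmiS1 (0 to 872). With AAV.miS1 it was 0 without any 1 Vehicle library or without AAV.miS1 replicate 4, 1 without replicate 2 or 3, and 7 without replicate 5, beside 0 to 2 of all genes without a Vehicle library and 2300 without replicate 5. These fits have fewer samples, and where they leave 2 libraries in a group the spread is pooled over groups. The cause of the other changes was not tested.

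All 3 same-numbered pairs of miSCA7Stuffer and StufferOnly had r over 0.1, though by label they too shared only a number. Such pairs of intmiS1 and miSCA7Stuffer had r of -0.0442 to 0.161, with 2 of 3 over 0.1. In the remaining groups compared r was -0.0981 to 0.0795. On average r, 5 of 9 featureCounts libraries, and 5 of all 12, correlated best with their own number. With the replicate block, which changed no count of iron genes called, the counts were 7 for StufferOnly against EmptyCapsid, 0 for miSCA7Stuffer against EmptyCapsid or StufferOnly, 0 for intmiS1 against EmptyCapsid and 7 for intmiS1 against StufferOnly. Over all genes the block gave 3299, 1, 0, 0 and 3065 calls in that order. Scaling by library totals gave a median log2 fold change over all genes of 0.18 in place of 0.07 for miSCA7Stuffer against EmptyCapsid and of -0.12 in place of 0.07 for AAV.miS1 minus StufferOnly.

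Log2 values that changed sign were all uncalled. With library totals these were TFRC with StufferOnly (0.055), TF (0.075) and STEAP3 (0.0035) with intmiS1 against EmptyCapsid, and HMOX1 (-0.061), FTL (-0.21), NCOA4 (-0.00087) and STEAP3 (-0.0017) for AAV.miS1 minus StufferOnly. With the counting term they were FTH1 (-0.0080), SLC40A1 (0.070), SLC11A2 (-0.029), TF (0.20) and STEAP3 (0.20) with intmiS1 against EmptyCapsid, FTH1 (-1.73) and TFRC (0.00027) against StufferOnly, and FTH1 (2.01) for AAV.miS1 minus intmiS1. TF with intmiS1 was 0.00069 by DESeq2 and 0.024 with the reverse STAR column. FTH1 for AAV.miS1 minus intmiS1 was 0.0022 without a filter and 0.019 with the unstranded column, which gave -0.14 for STEAP3 in AAV.miS1 minus StufferOnly. Within libraries over 15% unmapped, TFRC was -0.24 and TF 0.25. Leaving out 1 library, AAV.miS1 minus StufferOnly spanned -0.11 to 0.61 for FTH1, -0.59 to 0.30 for FTL, -0.24 to 0.46 for HMOX1, -0.078 to 0.39 for NCOA4, -0.44 to 0.53 for SLC40A1, -0.12 to 0.55 for STEAP3 and -0.23 to 0.43 for TF. FTH1 spanned -0.54 to 0.32 for AAV.miS1 minus intmiS1 and -0.064 to 0.76 for intmiS1 against StufferOnly, and NCOA4 -0.55 to 0.092 for miSCA7Stuffer against StufferOnly. With intmiS1 against EmptyCapsid SLC11A2 spanned -0.037 to 0.16, STEAP3 -0.29 to 0.021 and TF -0.14 to 0.13. TF spanned -0.56 to 0.13 for StufferOnly and -0.10 to 0.16 for miSCA7Stuffer against EmptyCapsid, and -0.13 to 0.54 for intmiS1 and -0.10 to 0.60 for miSCA7Stuffer against StufferOnly. TFRC spanned -0.27 to 0.13 with StufferOnly. Depth limits Vehicle replicate 2 most, where a count of 0 allows up to 31.1 CPM.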
